A study of Homo sapiens with 8 samples.

Results

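Ribosome footprints were compared between cells that carried a DNMT3A mutation (mutant) and cells with wild-type DNMT3A, over every gene with enough footprints to be tested. The members are the 2 mutant and the 2 wild-type footprint libraries, which are 4 of the 8 libraries of the series, and were chosen by their labels alone. The other 4 libraries hold mRNA from the same genotypes and are read here only beside a footprint value. Of 20453 gene IDs listed, 12852 had a footprint in at least 1 library and 9181 were tested. Both genotypes were made by transduction of cells labelled THP-1, a human monocytic leukaemia line, with a wild-type or a mutant DNMT3A. The vector, the promoter that drove the introduced gene, the time after transduction and the number of clones are not stated in the material used here. The labels number 2 replicates in each group and do not say that they were separate cultures, so each p-value reflects the spread of these libraries alone, possibly a technical one.

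Ribosome profiling digests RNA that no ribosome covers and sequences the fragments that ribosomes protect. The footprints of a gene therefore reflect how much of its mRNA is present, how many ribosomes sit on each mRNA and how long the coding sequence is. DNMT3A places methyl groups on cytosine in DNA, and its mutations recur in acute myeloid leukaemia. A growing cell spends many of its ribosomes on ribosomal proteins, histones, cytoskeleton, chaperones and energy metabolism, and these classes are used below to describe where the footprints lay. Protein lengths were not used here, so shares compare one class or gene between genotypes and do not rank genes per unit of length.

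The 4 footprint libraries held 1611724 and 1988513 counts in the wild type (replicates 1 and 2) and 944824 and 603360 counts in the mutant. Each library had counts on 11156 to 12081 genes. Levels are in CPM, counts scaled to a common library size by the trimmed mean of M values (TMM), and 3 counts stood for 1.55 to 4.92 CPM. DNMT3A itself had 137.7 and 154.1 CPM in the wild type and 144.4 and 149.4 CPM in the mutant. The genotypes overlapped for this gene (log2 fold change -0.003 ± 0.11 SE, adjusted p = 0.992 by edgeR), and gene counts do not separate the transduced copy from the endogenous gene, so this is no check of the allele. In mRNA it was called lower in the mutant, at 291.2 and 294.4 CPM against 240.9 and 244.3 CPM (log2 fold change -0.27, adjusted p = 4.27e-06 by edgeR). Footprints on marker genes went against the labelled monocytic identity, so the identity of the line is in doubt and the cells are called THP-1 by their label only. Of 20 monocyte and macrophage markers 6 reached a mean of 10 CPM and 10 had no footprint in any of the 4 libraries, among them CD14, FCGR1A, S100A8, S100A9, IRF8 and MPO, while 15 of 18 erythroid and megakaryocyte markers reached 10 CPM. The summed erythroid and megakaryocyte markers had 4830 and 4980 CPM in the wild type and 4400 and 4500 CPM in the mutant, those of monocytes at 547 to 589 and 638 to 648 CPM. Epithelial markers, 4 of 8 of them at 10 CPM or more, summed to 988 and 1050 CPM in the wild type and to 678 and 692 CPM in the mutant. Of T and NK cell markers 1 of 12 reached that level, and of B cell and of fibroblast and endothelial markers 0 of 8 each. The part of these marker differences in the results below was not tested.

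The first question was what the ribosomes were occupied with in each genotype. In both genotypes cytosolic ribosomal proteins, replication-dependent histones and proteins that fold and process cargo in the endoplasmic reticulum (ER) held the largest shares of the footprints assigned to a named class. The mutant libraries held smaller shares on actin and its binding proteins, histones, intermediate filaments, red cell genes, glycolysis and ribosomal proteins. They held larger shares on DNA repair, nuclear transport, mitosis and aminoacyl-tRNA synthetases. The genes were sorted into 49 classes that do not overlap, and genes outside all classes took 40.2% of the footprints in both wild-type libraries and 41.2% in both mutant libraries. Both mutant shares lay above both wild-type shares in 14 classes and below them in 19, so that 33 of 49 classes (67.3%) had groups without overlap. The exact permutation test, two-sided, gave each of these p = 0.333, the smallest that 2 against 2 libraries allow (0.494 after Benjamini-Hochberg adjustment over the classes). In a bulk lysate, fewer cells of a type and less RNA or fewer ribosomes per cell cannot be told apart, and a share gives no absolute number of ribosomes. Shares use library totals, on which the median log2 fold change of all genes tested was 0.058, against 0.006 with TMM. The median gene thus also had a slightly larger share in the mutant.

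**Figure D1:**
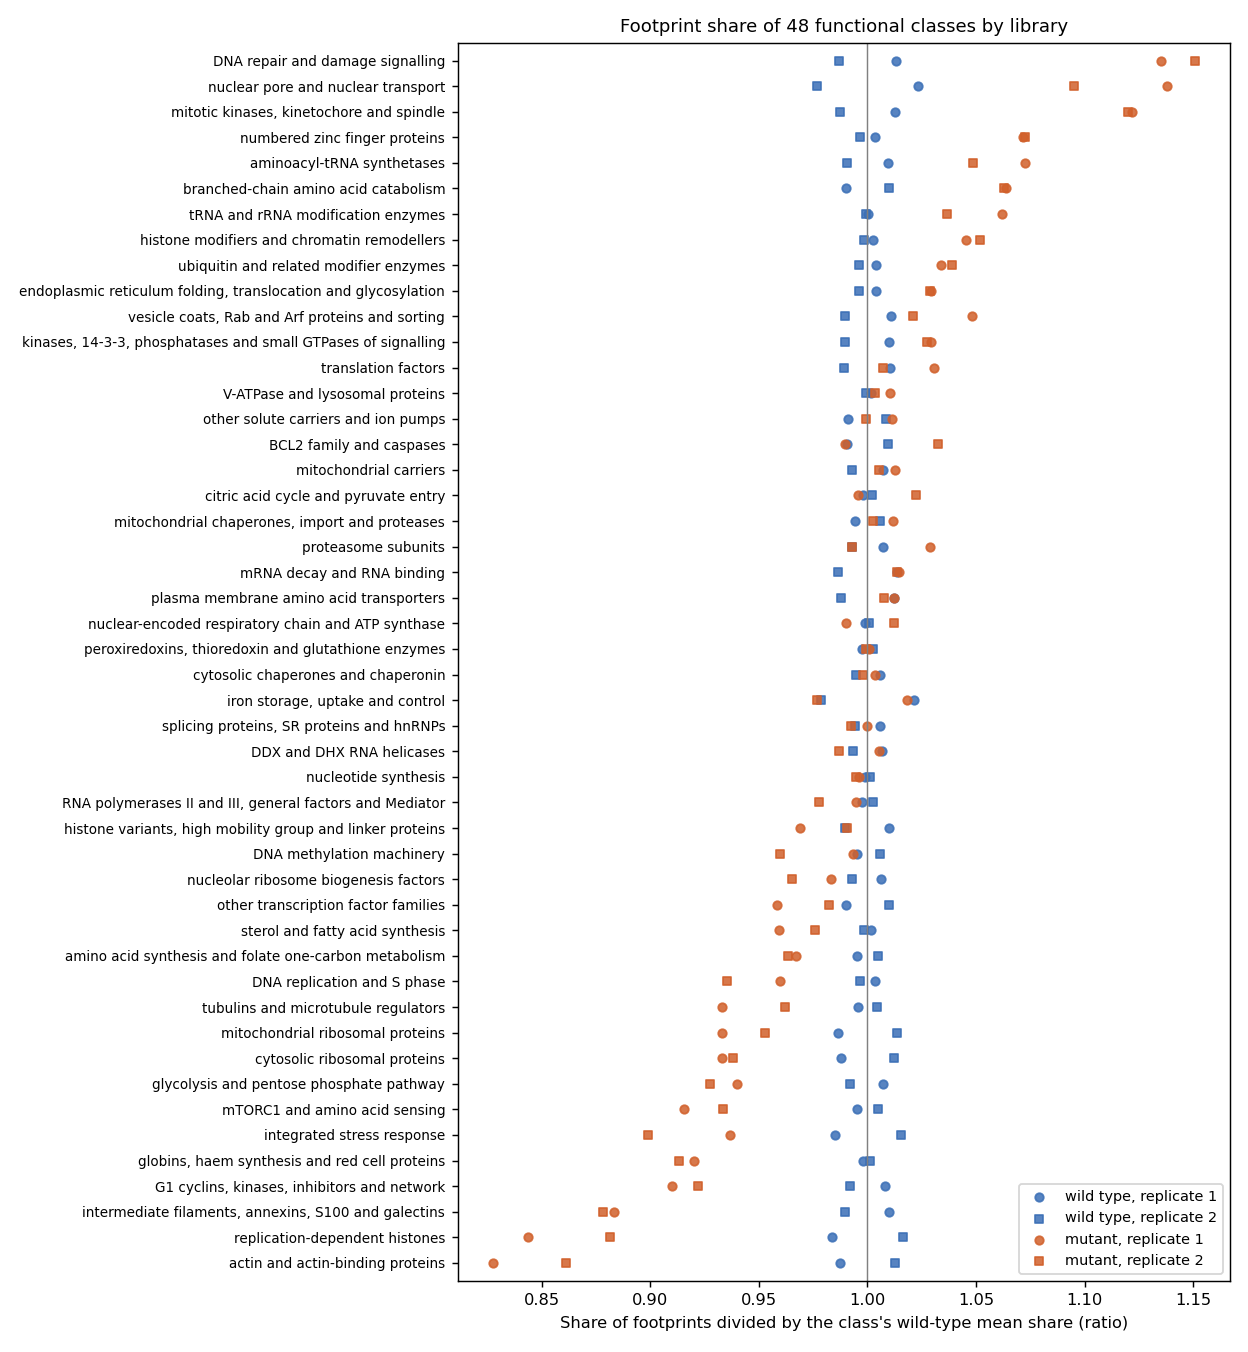
The share of footprints of 48 functional classes in each of the 4 libraries, divided by the mean of the 2 wild-type libraries for that class (horizontal axis, ratio). Blue points are wild type, orange points mutant, circles replicate 1 and squares replicate 2; the mitochondrially encoded genes, at a ratio of 1.82, are left out. DNA repair, nuclear transport and mitosis stand farthest to the right, and actin, histones and intermediate filaments farthest to the left.

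Across all 9181 genes tested, 945 (10.3%) were called higher and 1005 (10.9%) lower in the mutant by edgeR's quasi-likelihood test at a Benjamini-Hochberg adjusted p under 0.05, together 21.2% of the genes. Called changes were mostly small, with a median of 1.43-fold, and 94 rises and 82 falls reached 2-fold. Both mutant CPM values lay above both wild-type values in 29.5% of all genes and below them in 29.3%. Scaling by library totals alone moved the split of calls from 48.5% to 60.9% higher. The number of calls rests on a common biological coefficient of variation of 1.92% between the replicates: it was 288 with an assumed 10%, 384 with DESeq2, 223 without mutant replicate 1, 926 without mutant replicate 2 and 1147 without wild-type replicate 2. In the class counts below, a count without 1 library is added in most cases where it changed the number of calls by over 1.5 times, rises first, and "at 10%" stands for that assumed coefficient. Each class count stands beside the 10.3% higher and 10.9% lower over all genes, which are not matched to a class by footprint count. Genes with more footprints had smaller standard errors (0.036 for ACTB, 0.19 for ATM), so equal changes are called more readily in much occupied classes. For counts in mRNA the shares over all genes were 18.9% higher and 18.9% lower. Footprints were less concentrated on the most occupied genes in the mutant. The 100 most occupied genes of each library held 17.6% and 17.8% of the footprints in the wild type and 16.2% and 16.4% in the mutant, and the top 10 held 4.00% and 4.17% against 3.29% and 3.37%. For both counts of genes the groups did not overlap (exact permutation p = 0.333, two-sided).

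Beta-actin (ACTB, ENSG00000075624, GRCh38 chromosome 7, 5527148 to 5530601), the main protein of the cytoplasmic actin filaments, was the gene with the most footprints in all 4 libraries. It held 9124 and 9671 CPM in the wild type and 5710 and 6152 CPM in the mutant. Both mutant values lay far below both wild-type values, and the fall was 1.59-fold (log2 fold change -0.67 ± 0.036 SE, adjusted p = 1.31e-33 by edgeR). Next came the histone gene H3C2 and HSP90B1, the ER chaperone also known as GRP94. HSP90B1 had 3697 and 3665 CPM in the wild type and 3809 and 3642 CPM in the mutant, with overlapping groups (log2 fold change 0.02, adjusted p = 0.756 by edgeR). ATP5F1B, the catalytic beta subunit of the mitochondrial ATP synthase, also overlapped, at 3558 and 3650 CPM against 3592 and 3654 CPM. The elongation factor EEF2, which moves the ribosome along the mRNA, was at 3250 and 3344 CPM in the wild type and 2902 and 3078 CPM in the mutant (log2 fold change -0.15 ± 0.039 SE, adjusted p = 0.00336 by edgeR). Of the 15 most occupied genes, 11 were called lower, 0 higher and 4 were not called (HSP90B1, ATP5F1B, the linker histone H1-2 and RACK1, a scaffold protein of the small ribosomal subunit). The smaller falls among them rest on few percent: those of EEF2 and of the glycolytic aldolase ALDOA lost the call with DESeq2, with library totals and without mutant replicate 1, and that of the ER chaperone calreticulin (CALR) with a 10% coefficient of variation and once a trend with gene density (given further on) was removed.

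**Figure D2:**
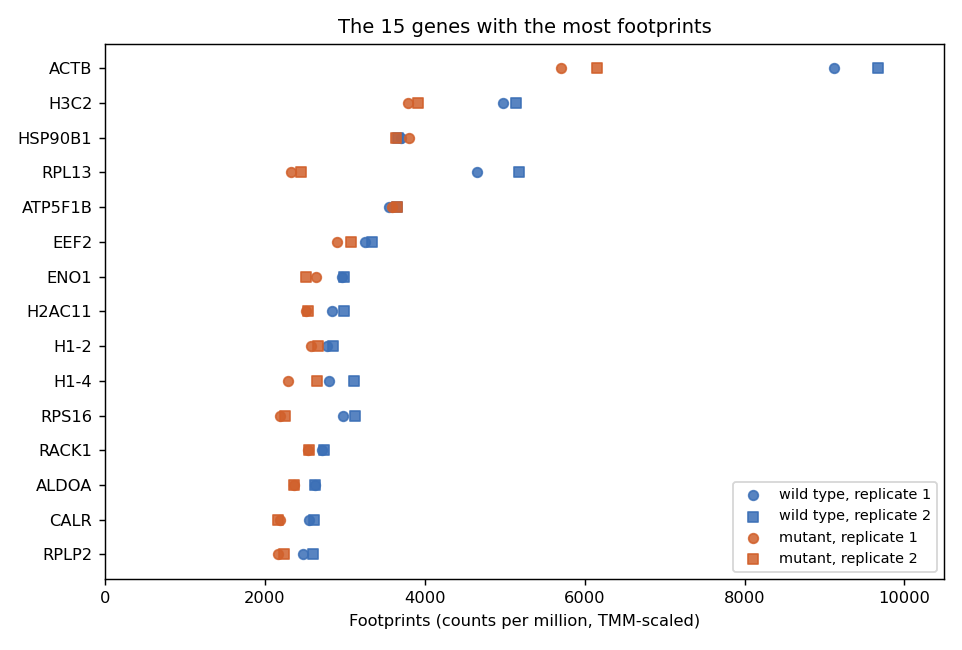
Footprints in CPM (horizontal axis, from 0) on the 15 genes with the highest mean over the 4 libraries. Each gene has 1 point per library, blue for wild type and orange for mutant; ACTB falls from 9124 and 9671 to 5710 and 6152 CPM, RPL13 falls 2.06-fold, and HSP90B1 and ATP5F1B overlap.

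Cytosolic ribosomal proteins were the most occupied class in both genotypes, and their genes moved in both directions. The class held 5.88% and 6.03% of the footprints in the wild type and 5.56% and 5.59% in the mutant, a mean of 5.96% ± 0.101 (SD, n = 2) against 5.57% ± 0.0212 (SD, n = 2). The groups did not overlap. Among 76 members tested, 22 rose, 24 fell and 30 did not pass, a median log2 fold change of -0.003 that was positive under 2 other scalings. There were 7 rises and 12 falls without mutant replicate 1, and 4 and 5 at 10%. A single gene, RPL13 of the large subunit, made up 61.9% of the difference in share. RPL13 (ENSG00000167526, GRCh38 chromosome 16, 89560657 to 89566829) had 4658 and 5180 CPM in the wild type and 2333 and 2449 CPM in the mutant. The mutant values were lower by 2.06-fold (log2 fold change -1.05 ± 0.041 SE, adjusted p = 5.16e-46 by edgeR). In the small subunit RPS19 fell from 2740 and 2810 CPM to 1531 and 1553 CPM (log2 fold change -0.85 ± 0.043 SE, adjusted p = 2.57e-35 by edgeR), and RPS13 from 936.5 and 995 CPM to 574.6 and 630.3 CPM (log2 fold change -0.70 ± 0.059 SE, adjusted p = 6.81e-19 by edgeR). The stalk protein RPLP0 went the other way, from 336.9 and 314.4 CPM to 656.2 and 576.1 CPM (log2 fold change 0.94 ± 0.069 SE, adjusted p = 9.02e-23 by edgeR). Its partner in the stalk, RPLP2, fell by 0.21 on the log2 scale (edgeR adjusted p = 3.8e-05), and RPS16 by 0.47. In mRNA the class share was 10.34% and 10.43% in the wild type and 10.66% and 10.94% in the mutant, above and not below. Footprints per mRNA, tested as a genotype by assay interaction, were called lower for 20 and higher for 8 of the 76 genes, where 4.16% of all genes were called. Many of these genes have near-identical pseudogene copies, so the values of single members are uncertain.

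The mRNAs of ribosomal proteins and of several translation factors are known for a tract of pyrimidines that begins with C at the first base, through which growth signals act on their translation. The start sites of the members named above are shown for that reason, from the RefSeq promoter table (GRCh38.p14). Each line gives 10 bases before the start site and 20 bases from it on, 5′ to 3′ on the gene's strand, and the capitals mark the unbroken run of C or T from the start site.
RPL13 (chr16:89560647-89560676, plus strand): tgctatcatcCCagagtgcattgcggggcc
RPS19 (chr19:41860245-41860274, plus strand): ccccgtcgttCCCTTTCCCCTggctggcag
RPS16 (chr19:39435930-39435959, minus strand): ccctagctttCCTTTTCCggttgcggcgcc
RPS13 (chr11:17077648-17077677, minus strand): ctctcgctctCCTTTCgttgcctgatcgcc
RPLP2 (chr11:809957-809986, plus strand): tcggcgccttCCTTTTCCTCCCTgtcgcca
RPLP0 (chr12:120201092-120201121, minus strand): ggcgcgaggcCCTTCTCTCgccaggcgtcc
RACK1 (chr5:181243887-181243916, minus strand): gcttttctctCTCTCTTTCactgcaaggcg
EEF2 (chr19:3985444-3985473, minus strand): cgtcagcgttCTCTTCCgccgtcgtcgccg

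A C at the start site followed by 4 bases that are each C or T, searched on the gene's strand only, was found in 42 of the 62 ribosomal protein genes with an entry (67.7%). It was found in 5.91% of the 7601 tested genes with an entry and in 4.04% of all 27305 promoters of the table. Genes with the tract included both directions: RPS19, RPS13 and RPS16 fell, RPLP0 rose, and RACK1 was not called at 2712 and 2745 CPM against 2538 and 2549 CPM. Among ribosomal protein genes with the tract 15 of 42 fell and 8 rose, with a median log2 fold change of -0.08 in footprints and 0.07 in mRNA. Among the 20 without it 4 fell and 8 rose, with a median of 0.22 in footprints and 0.02 in mRNA. Over all tested genes with an entry, 10.8% fell and 10.3% rose. RPL13 has 2 pyrimidines at the start site given in the table and counts as without the tract, and a match or its absence describes only these letters.

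**Figure D3:**
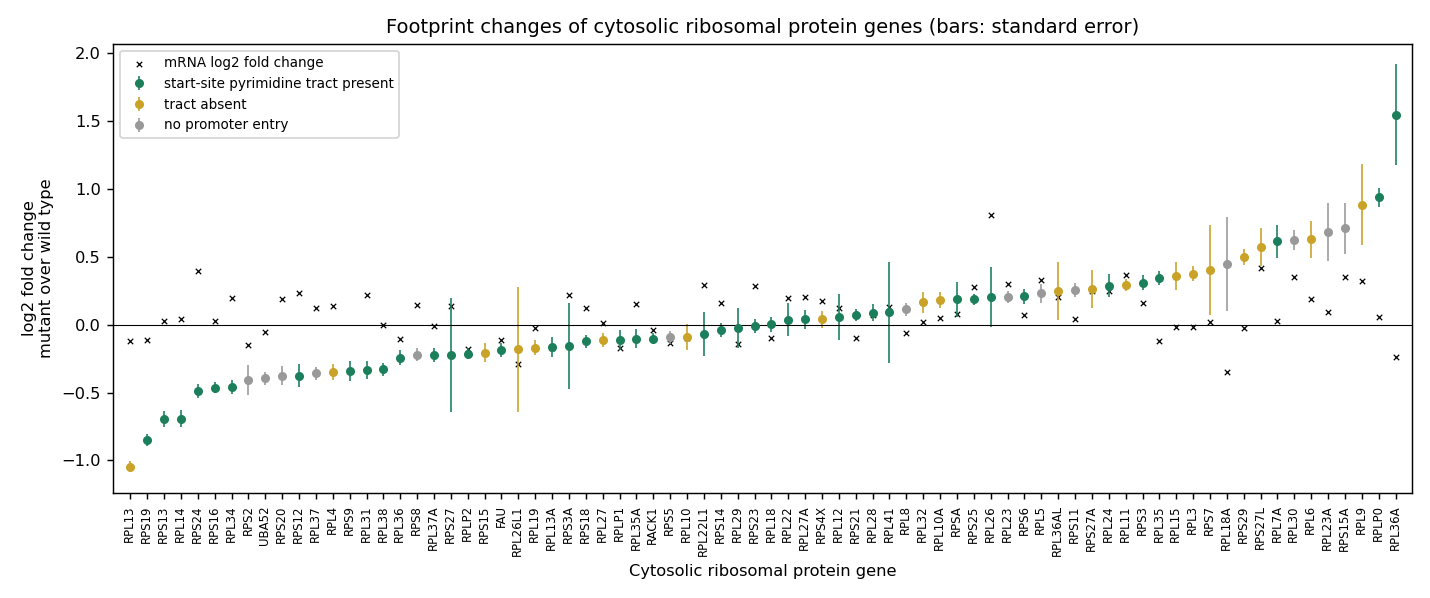
The log2 fold change in footprints (points, with the standard error as bars) and in mRNA (crosses) of each cytosolic ribosomal protein gene tested, in the order of the footprint change. Colours show whether the start-site pyrimidine tract is present (green), absent (yellow) or has no entry (grey); RPL13 and RPS19 stand lowest, and the mRNA crosses stay closer to 0 than the footprint points at both ends.

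Other parts of the translation machinery divided. Mitochondrial ribosomal proteins, which make the ribosomes of mitochondria, held 1.166% and 1.198% of the footprints in the wild type and 1.103% and 1.126% in the mutant, without overlap. Among 78 members tested, 9 rose, 20 fell and 49 did not pass (0 and 4 without mutant replicate 1, 5 and 14 without wild-type replicate 2, 1 and 4 at 10%). MRPS34 fell from 330.6 and 399.2 CPM to 177.9 and 213.4 CPM (log2 fold change -0.94 ± 0.093 SE, adjusted p = 4.32e-15 by edgeR), MRPL16 by 0.82 and MRPL2 by 0.95 on the log2 scale. The member with the most footprints, MRPS18B, was not called (log2 fold change -0.07). Translation factors overlapped between the genotypes in share, with 1.74% and 1.78% against 1.77% and 1.82%, and 10 of 78 rose and 13 fell (2 and 2 without mutant replicate 1, 5 and 7 without mutant replicate 2, 6 and 8 without wild-type replicate 2, 2 and 2 at 10%). Among them the initiation factor EIF4H, a helper of the helicase eIF4A, fell from 241.1 and 212 CPM to 127.7 and 118.2 CPM (log2 fold change -0.86, adjusted p = 2.61e-10 by edgeR). EIF6, which keeps large subunits from joining small ones, fell by 0.67. The helicase gene EIF4A2 rose from 79.95 and 94.64 CPM to 158 and 167.4 CPM (log2 fold change 0.88, adjusted p = 6.27e-09 by edgeR), and the ribosome recycling factor ABCE1 rose by 0.58. PABPC4, a poly(A)-binding protein and the most occupied member of this class, had 2291 and 2224 CPM against 2299 and 2198 CPM. The class and its share did not include EEF2, which had more footprints.

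Aminoacyl-tRNA synthetases, which load tRNAs with their amino acids, held a larger share in the mutant, at 1.24% and 1.21% against 1.17% and 1.15% in the wild type. Among 40 members tested, 9 rose, 5 fell and 26 did not pass. Their median log2 fold change was -0.003 with TMM and 0.049 with library totals, where that of all genes was 0.058. The most occupied, the methionine enzyme MARS1, rose from 969.5 and 961.4 CPM to 1078 and 1065 CPM (log2 fold change 0.15, adjusted p = 0.0226 by edgeR), a call that DESeq2 and 3 of the 4 single-library omissions did not give. EPRS1, the enzyme for glutamate and proline, rose from 522.2 and 491.8 CPM to 678.2 and 625.4 CPM (log2 fold change 0.38 ± 0.063 SE, adjusted p = 1.35e-06 by edgeR), and the isoleucine enzyme IARS1 rose by 0.24. VARS1, the enzyme for valine, fell from 856.6 and 874 CPM to 725.3 and 728.8 CPM (log2 fold change -0.25 ± 0.056 SE, adjusted p = 0.000338 by edgeR). FARSA, a subunit of the phenylalanine enzyme, fell by 0.53. For each of these 5 genes the mRNA moved in the same direction by edgeR's test. Without mutant replicate 1, and likewise at 10%, 0 members rose and 1 fell, and there were 3 and 3 without mutant replicate 2 and 5 and 3 without wild-type replicate 2.

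Histones of the replication-dependent kind package newly made DNA, and their mRNAs lack a poly(A) tail. They held 4.05% and 4.19% of the footprints in the wild type and 3.48% and 3.63% in the mutant, a ratio of 0.863 between the means. Of 43 genes tested 25 fell, 2 rose and 16 were not called, with a median log2 fold change of -0.25. Without mutant replicate 1 there was 1 rise and 11 falls (median -0.157), and at 10% there were 0 and 8. H3C2 (ENSG00000286522, GRCh38 chromosome 6, 26031589 to 26032099), the second most occupied gene of all, had 4980 and 5137 CPM in the wild type and 3795 and 3913 CPM in the mutant. Both mutant values were lower (log2 fold change -0.39 ± 0.037 SE, adjusted p = 2.79e-16 by edgeR). H4C3 fell from 2258 and 2315 CPM to 1480 and 1479 CPM (log2 fold change -0.63 ± 0.044 SE, adjusted p = 6.04e-24 by edgeR), H4C2 by 0.60 and H2BC21 by 0.49. The linker histone H1-4 fell by 0.27, a call lost with DESeq2, without mutant replicate 1 and after removal of the gene density trend. Footprints per mRNA were called lower for 12 and higher for 3 of the 43 genes, but the mRNA libraries were copied with oligo(dT), so for histones, H4C3 included, they do not measure the total mRNA. The copies are near-identical and clustered, so counts of single genes are uncertain, and with the density trend removed 15 fell and 4 rose (median -0.10).

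Genes of DNA replication, which supply the S phase that histones serve, held 0.826% and 0.821% in the wild type and 0.791% and 0.770% in the mutant. Among 65 members tested, 5 rose, 9 fell and 51 did not pass (0 and 3 without mutant replicate 1, 2 and 2 at 10%). The helicase subunit MCM7 fell from 1051 and 1071 CPM to 794.4 and 796.1 CPM (log2 fold change -0.42 ± 0.054 SE, adjusted p = 5.09e-10 by edgeR). The sliding clamp PCNA fell from 481.6 and 495.4 CPM to 367.4 and 300.4 CPM, and the primase PRIM1 from 158.6 and 154.1 CPM to 81.64 and 90.28 CPM (log2 fold changes -0.52 and -0.88). The mRNA of PRIM1 was higher in the mutant (log2 fold change 0.34) and that of PCNA did not pass (0.02), and footprints per mRNA of both were lower by edgeR's interaction test (adjusted p = 3.3e-08 and 1.5e-05). GMNN, the geminin that blocks a second round of licensing, rose by 0.69 from 126.9 and 116.4 CPM to 212.5 and 169.1 CPM.

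Mitotic genes, DNA repair genes and nuclear transport genes took larger shares in the mutant. Mitotic kinases, kinetochore and spindle genes held 1.12% and 1.09% in the wild type and 1.24% in both mutant libraries, and rose from rank 23 to rank 18 of the classes. Among 111 members tested, 22 rose, 6 fell and 83 did not pass, with a median log2 fold change of 0.14. CDK1 (ENSG00000170312, GRCh38 chromosome 10, 60778331 to 60794852), the kinase of mitotic entry, rose from 271.6 and 251.3 CPM to 422.8 and 384.1 CPM (log2 fold change 0.64 ± 0.079 SE, adjusted p = 5.32e-11 by edgeR). Its partner cyclin A2 (CCNA2) rose from 214.5 and 206.9 CPM to 306.7 and 311.9 CPM, and SKA1, which couples kinetochores to microtubules, from 31.09 and 30 CPM to 72.22 and 60.73 CPM (log2 fold changes 0.55 and 1.15). The topoisomerase gene TOP2B, counted in this class by the gene list alone, rose by 0.84. In mRNA, 62 of 111 members were called higher and 14 lower, where 18.9% of all genes were called in each direction. The footprint counts became 6 higher and 0 lower with an assumed coefficient of variation of 10%, 3 and 0 without mutant replicate 1, 12 and 1 without mutant replicate 2 and 16 and 2 without wild-type replicate 2.

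DNA repair and damage signalling had the largest ratio among the nuclear-encoded classes, 1.14, from 0.560% and 0.546% to 0.627% and 0.636%. Among 62 members tested, 12 rose, 2 fell and 48 did not pass. The damage kinase ATM rose from 40.61 and 28.96 CPM to 59.66 and 68.94 CPM (log2 fold change 0.89 ± 0.19 SE, adjusted p = 0.000206 by edgeR), and XRCC4, which joins broken ends, from 20.94 and 21.72 CPM to 48.14 and 37.75 CPM. RIF1 and FANCI, of end protection and crosslink repair, rose by 0.51 and 0.47 on the log2 scale. PRKDC, the large kinase of end joining and the most occupied of the class, had 1582 and 1570 CPM against 1716 and 1707 CPM (log2 fold change 0.12, adjusted p = 0.0417 by edgeR). That call was lost under 9 alternatives, and its sign turned when the gene density trend was removed. The class had 0 rises and 0 falls without mutant replicate 1, 4 and 1 without mutant replicate 2, 6 and 1 without wild-type replicate 2, and 3 and 0 at 10%.

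Nuclear pore and transport genes held 1.27% and 1.21% in the wild type and 1.41% and 1.36% in the mutant. Among 60 members tested, 15 rose, 7 fell and 38 did not pass. XPOT, the exporter of tRNA, rose from 158.6 and 158.3 CPM to 285.7 and 275.8 CPM (log2 fold change 0.83 ± 0.093 SE, adjusted p = 2.11e-12 by edgeR). The import receptor IPO7 rose from 224.6 and 221.3 CPM to 346.4 and 343.1 CPM, and NUP37 and the importin recycler CSE1L rose by 0.68 and 0.38. The pore protein NUP210, the most occupied member, had 968.2 and 949.5 CPM against 1034 and 989.8 CPM, without overlap, and was not called (edgeR adjusted p = 0.261). With a coefficient of variation of 10%, 3 members rose and 0 fell, and there were 4 and 1 without mutant replicate 1 and 10 and 1 without mutant replicate 2.

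The cytoskeleton held a smaller share. Actin and actin-binding proteins held 2.35% (95% exact binomial interval 2.33 to 2.37) and 2.41% in the wild type and 1.97% (1.94 to 2.00) and 2.05% in the mutant. These intervals cover counting error only, since the counts are of reads and not of molecules. ACTB alone made up 85.7% of the difference. The 52 members tested divided into 10 that fell, 4 that rose and 38 that did not pass (0 rises and 3 falls without mutant replicate 1, 1 and 8 without mutant replicate 2, 0 and 2 at 10%). ACTG1, the other cytoplasmic actin, fell from 1985 and 2150 CPM to 1549 and 1651 CPM (log2 fold change -0.38 ± 0.045 SE, adjusted p = 2.3e-11 by edgeR). It shares much of its sequence with ACTB and both have pseudogenes, so the split of reads between them is uncertain. The crosslinker ACTN4 fell by 0.42. Among intermediate filaments and their class, with 0.609% and 0.596% against 0.532% and 0.529%, 10 of 27 fell and 1 rose (1 rise and 4 falls without mutant replicate 1, 0 and 5 without mutant replicate 2, 0 and 2 at 10%). Vimentin (VIM) fell from 1441 and 1462 CPM to 1093 and 1151 CPM, the keratins KRT19 and KRT8 by 0.70 and 0.77 on the log2 scale, and lamin A/C (LMNA) by 0.50.

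Metabolic classes differed in direction. Glycolysis and pentose phosphate genes held 1.67% and 1.64% in the wild type and 1.55% and 1.53% in the mutant, and 13 of the 31 tested fell, 2 rose and 16 did not pass (median -0.20). Enolase (ENO1) fell from 2967 and 2992 CPM to 2645 and 2510 CPM (log2 fold change -0.20, adjusted p = 3.84e-05 by edgeR). Transaldolase (TALDO1) fell from 1311 and 1253 CPM to 939.9 and 932.3 CPM (log2 fold change -0.45, adjusted p = 3.05e-12 by edgeR), and pyruvate kinase (PKM) by 0.41. The lactate carrier SLC16A1 rose from 1138 and 1052 CPM to 1334 and 1400 CPM (log2 fold change 0.32, adjusted p = 1.56e-07 by edgeR). None of the 31 was called with a coefficient of variation of 10%, and there were 1 higher and 2 lower without mutant replicate 1 and 1 and 7 without mutant replicate 2. In sterol and fatty acid synthesis 10 of 46 fell and 7 rose (2 rises and 3 falls without mutant replicate 1, and the same numbers at 10%). Fatty acid synthase (FASN) fell from 1520 and 1632 CPM to 1077 and 1124 CPM (log2 fold change -0.53, adjusted p = 2.31e-16 by edgeR), and DHCR7, a reductase of cholesterol synthesis, fell by 0.63. LBR, a sterol reductase of the nuclear envelope, rose from 897.2 and 858 CPM to 1181 and 1170 CPM (log2 fold change 0.42).

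The title of the study names branched-chain amino acid metabolism. Its catabolic genes held 0.341% and 0.348% of the footprints in the wild type and 0.366% in both mutant libraries, without overlap. Of 29 members 3 rose (the propionyl-CoA carboxylase subunit PCCA, HSD17B10 and the valine pathway enzyme HIBADH), 1 fell (HADHA, of the trifunctional protein of fatty acid oxidation) and 25 were not called. Over all genes tested 10.3% rose and 10.9% fell. With DESeq2, 0 of the 29 rose and 0 fell. All 4 calls were lost with an assumed coefficient of variation of 10%, without mutant replicate 1 and without wild-type replicate 2, and the class had 0 rises and 2 falls without wild-type replicate 1 and 1 and 0 without mutant replicate 2. BCAT1, the cytosolic enzyme that starts the breakdown of valine, leucine and isoleucine, is named after its values were seen. It had 361.7 and 378.6 CPM in the wild type and 435.4 and 397.2 CPM in the mutant, without overlap, and did not pass (log2 fold change 0.18 ± 0.073 SE, adjusted p = 0.0655 by edgeR). Among synthesis enzymes, glutamine synthetase (GLUL) fell from 1572 and 1590 CPM to 1020 and 983.2 CPM (log2 fold change -0.65 ± 0.049 SE, adjusted p = 4.55e-22 by edgeR). The folate enzyme MTHFD2 of mitochondria fell from 1530 and 1657 CPM to 1253 and 1280 CPM, while its mRNA was higher (log2 fold changes -0.34 and 0.18). Asparagine synthetase (ASNS) rose from 879.4 and 834.7 CPM to 1090 and 1065 CPM, and the serine enzyme PSAT1 by 0.39. In this class of amino acid synthesis and folate genes 6 of 38 rose and 9 fell (2 and 2 without mutant replicate 1, 1 and 2 at 10%).

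Plasma membrane amino acid transporters overlapped between the genotypes in footprint share, at 0.757% and 0.739% against 0.757% and 0.753%. In mRNA their share was 0.879 times that of the wild type, with 13 of 21 members called lower and 2 higher, while in footprints 3 of 20 rose and 2 fell. SLC1A5, a carrier of glutamine, had 1905 CPM in both wild-type libraries and 1750 and 1806 CPM in the mutant and did not pass (edgeR adjusted p = 0.0801). SLC3A2, the heavy chain of the leucine exchanger, fell from 1300 and 1329 CPM to 1105 and 1174 CPM (log2 fold change -0.21, adjusted p = 0.000529 by edgeR). The glutamine carriers SLC38A1 and SLC38A2 rose by 0.38 and 0.21, and the cystine exchanger SLC7A11 by 0.40. Footprints per mRNA were called higher for 2 of the 20, 1 of them SLC1A5 (edgeR interaction, log2 fold change 0.21, adjusted p = 0.025). Each of the 4 calls named here was lost with a coefficient of variation of 10% and without mutant replicate 1.

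Nutrient and stress signalling genes took small shares. In the class of mTORC1 and amino acid sensing, 4 of 39 rose and 4 fell (0 and 1 without mutant replicate 1, 3 and 1 without mutant replicate 2, 3 and 2 without wild-type replicate 2, 1 and 2 at 10%), and the share was 0.380% and 0.383% against 0.349% and 0.356%. DDIT4, an inhibitor of mTORC1 that stress induces, fell from 1578 and 1581 CPM to 1065 and 1203 CPM (log2 fold change -0.49 ± 0.049 SE, adjusted p = 7.13e-15 by edgeR). DDIT4 alone made up 137% of the difference in share (-0.0394 against -0.0288 points for the class). Without it the mean share of the class was thus higher in the mutant. Of the 39 members, 20 had a log2 fold change above 0 and 19 below it. MIOS, of the complex that relays amino acid supply, rose from 26.65 and 17.58 CPM to 49.19 and 41.04 CPM, and FNIP1 by 0.63. The kinase PDPK1 fell from 24.11 and 18.1 CPM to 8.373 and 6.566 CPM. In the integrated stress response, the pathway that lowers initiation and favours ATF4, 3 of 16 rose and 3 fell (0 and 1 without mutant replicate 1, 2 and 1 without mutant replicate 2, 1 and 0 at 10%). ATF4 itself fell from 82.48 and 89.47 CPM to 58.61 and 55.81 CPM (log2 fold change -0.58, adjusted p = 0.00408 by edgeR), a call lost with DESeq2 and in 3 of the 4 single-library omissions. Its mRNA did not pass (-0.01). The related factor ATF5 rose from 5.08 and 4.65 CPM to 19.89 and 16.41 CPM (log2 fold change 1.91 ± 0.39 SE, adjusted p = 7.55e-05 by edgeR), on 8, 9, 19 and 10 counts. DDIT3, another factor of the pathway, rose by 0.83, and the secreted stress protein GDF15 fell from 741.7 and 763.8 CPM to 549.5 and 564.7 CPM.

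DNA methylation genes held 0.122% and 0.123% against 0.121% and 0.117%. Among 17 members tested, 1 rose, 1 fell and 15 did not pass, where 2 of 18 were called higher and 9 lower in mRNA. The maintenance methyltransferase DNMT1 fell from 191 and 191.3 CPM to 131.9 and 151 CPM (log2 fold change -0.46 ± 0.11 SE, adjusted p = 0.000847 by edgeR). TET2, which oxidises methylcytosine, rose from 20.3 and 22.24 CPM to 41.87 and 36.11 CPM (log2 fold change 0.89 ± 0.24 SE, adjusted p = 0.00288 by edgeR), and its mRNA did not pass (0.05). Both calls were lost without mutant replicate 1 and at 10%. With DESeq2 that of DNMT1 was lost and TET2 had no adjusted p, so neither gene was called. GADD45A, the member with the most footprints, was at 269.7 and 270.5 CPM against 253.3 and 261 CPM (edgeR adjusted p = 0.587).

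Proteins of the ER held 3.71% and 3.68% in the wild type and 3.80% in both mutant libraries, and 25 of 88 rose while 17 fell. UGGT1, which senses misfolded glycoproteins, rose from 310.9 and 290.6 CPM to 438.5 and 415.3 CPM (log2 fold change 0.52, adjusted p = 2.82e-08 by edgeR). PRKCSH, a glucosidase subunit, fell from 747.4 and 740.1 CPM to 547.4 and 541.7 CPM, and PPIB and UFD1 by 0.37 and 0.42. At 10%, 1 member rose and 0 fell. The balance turned to 3 rises and 4 falls without mutant replicate 1 and to 4 and 7 with DESeq2, and was 10 and 9 without mutant replicate 2 and 11 and 10 without wild-type replicate 2. Nuclear-encoded respiratory chain and ATP synthase genes overlapped in share (2.78% and 2.79% against 2.76% and 2.82%), yet 26 of 96 fell and 16 rose (4 rises and 5 falls without mutant replicate 1, 9 and 14 without mutant replicate 2, 2 and 5 at 10%). Among subunits of the complexes, NDUFB7 fell from 307.7 and 310.8 CPM to 158 and 180.6 CPM (log2 fold change -0.89 ± 0.095 SE, adjusted p = 1.79e-13 by edgeR), COX5B by 0.60, NDUFS7 by 0.52 and NDUFAB1 by 0.53. In mRNA the same class had 33 of 100 higher and 13 lower, and footprints per mRNA were called lower for 16 and higher for 4 of 96. ATP5MK, a small membrane subunit of the ATP synthase, rose from 33.63 and 27.93 CPM to 64.89 and 67.3 CPM (log2 fold change 1.11 ± 0.19 SE, adjusted p = 2.75e-06 by edgeR).

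The mitochondrially encoded genes, which mitochondrial ribosomes translate, took 0.0161% and 0.0128% in the wild type and 0.0293% and 0.0232% in the mutant. Of 8 tested 5 rose and 1 fell. There was 1 rise and no fall without mutant replicate 1, 3 and 0 without mutant replicate 2, and 2 and 0 at 10%. MT-ND4, of complex I, rose from 52.66 and 41.37 CPM to 127.7 and 95.2 CPM (log2 fold change 1.30 ± 0.15 SE, adjusted p = 1.62e-11 by edgeR), and MT-ND5 from 17.13 and 16.03 CPM to 32.45 and 34.47 CPM. MT-ATP6 and MT-CO2 rose by 1.34 and 1.36 from levels under 7 CPM. Whether reads of these genes were partly removed before deposit is not given in the sources used here. In the redox class GPX4, the selenoprotein that repairs lipid peroxides, fell from 854.7 and 975.9 CPM to 487.7 and 581.1 CPM (log2 fold change -0.81 ± 0.064 SE, adjusted p = 1.15e-20 by edgeR).

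Red cell genes, whose markers were abundant in all 4 libraries, held 1.04% in both wild-type libraries and 0.957% and 0.950% in the mutant. Among 41 members tested, 16 fell, 5 rose and 20 did not pass, with a median log2 fold change of -0.22. The embryonic zeta globin HBZ (ENSG00000130656, GRCh38 chromosome 16, 152644 to 154503) fell from 454.3 and 422.5 CPM to 236.5 and 183.8 CPM (log2 fold change -1.02 ± 0.085 SE, adjusted p = 4.84e-19 by edgeR). The fetal gamma globin HBG2 rose from 207.5 and 202.2 CPM to 324.5 and 321.7 CPM (log2 fold change 0.66 ± 0.086 SE, adjusted p = 6.47e-10 by edgeR). Its mRNA did not pass (-0.05), and footprints per mRNA were higher by edgeR's interaction test (log2 fold change 0.71, adjusted p = 9e-08). HBG1 and HBG2 are near-identical, so reads may be split between them. BLVRB, a reductase abundant in red cells, fell from 1196 and 1309 CPM to 847.8 and 902.8 CPM, and the erythroid transcription factor KLF1 by 0.42. RHAG, a membrane protein of the Rh complex and the most occupied of the class, overlapped at 2100 and 1984 CPM against 2133 and 2062 CPM. With a coefficient of variation of 10%, 1 member rose and 2 fell, and there were 1 and 3 without mutant replicate 1 and 2 and 8 without mutant replicate 2.

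Iron genes overlapped in share (0.342% and 0.327% against 0.341% and 0.327%) and divided within the class. Ferritin heavy chain (FTH1), which stores iron, fell from 121.8 and 129.3 CPM to 54.42 and 67.3 CPM (log2 fold change -1.08 ± 0.15 SE, adjusted p = 3.5e-09 by edgeR). Its light chain partner FTL rose from 326.8 and 343.4 CPM to 395.6 and 385.7 CPM (log2 fold change 0.22, adjusted p = 0.0234 by edgeR). IREB2, an iron-regulated RNA-binding protein that controls ferritin translation, rose by 0.42, and NCOA4, which carries ferritin to its breakdown, by 0.45. All 3 rises were lost with DESeq2, at 10% and without either mutant library, where the class had 0 rises and 1 fall, and those of IREB2 and NCOA4 also without wild-type replicate 2. The transferrin receptor TFRC had 2076 and 1925 CPM against 1875 and 1796 CPM (log2 fold change -0.12, adjusted p = 0.0421 by edgeR), a call lost under 8 settings. In mRNA FTH1 did not pass (-0.01), and its footprints per mRNA were lower by edgeR's interaction test (adjusted p = 1.8e-06). Both ferritin genes have many pseudogene copies.

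The largest changes of single genes came from classes with many footprints (RPLP0, ATP5MK, TMSB4X), from small ones and from outside all classes. Among genes with a mean of at least 50 counts, the largest rise was in CCDC187 (ENSG00000260220, GRCh38 chromosome 9, 136249973 to 136306901), from 33.63 and 34.65 CPM to 119.3 and 142.8 CPM. That was 3.75-fold, with both mutant values high (log2 fold change 1.91 ± 0.16 SE, adjusted p = 1.34e-19 by edgeR), and the gene had no mRNA count in 3 of the 4 mRNA libraries and 0.225 CPM in mutant replicate 1, so it did not enter the mRNA test. What these footprints without mRNA come from was not tested. After MT-ND4, SKA1 and ATP5MK came PPIA, the cyclophilin bound by ciclosporin, from 36.17 and 46.54 CPM to 84.78 and 85.36 CPM, a gene with many pseudogenes. The other rises among the 12 largest were in TMX3, YIPF5, RPLP0, ZFAND1, ALDH1L2, ATM and EIF4A2, with log2 fold changes between 0.88 and 1.00. ALDH1L2, a mitochondrial folate enzyme, rose from 47.59 and 36.72 CPM to 78.5 and 78.79 CPM and also in mRNA (0.92 and 1.08).

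The largest fall among genes with a mean of at least 50 counts was in TMSB4X (ENSG00000205542, GRCh38 chromosome X, 12975110 to 12977223), thymosin beta 4, which binds actin monomers. It had 54.57 and 61.54 CPM in the wild type and 11.51 and 14.77 CPM in the mutant, on 86, 119, 11 and 9 counts. The mutant values were 4.54-fold lower (log2 fold change -2.18 ± 0.26 SE, adjusted p = 2.13e-11 by edgeR). POLR2K, a small subunit shared by the RNA polymerases, fell from 64.72 and 63.09 CPM to 18.84 and 31.19 CPM, and TAF11 of the general factor TFIID from 81.21 and 79.13 CPM to 37.68 and 39.39 CPM (log2 fold changes -1.43 and -1.06). JUN, a subunit of the AP-1 transcription factor, fell from 79.95 and 83.26 CPM to 41.87 and 37.75 CPM. PIAS4, a SUMO ligase, fell by 1.20 on the log2 scale, and the log2 fold changes of ZNF580, CHRAC1, KTI12 and ANKRD39 lay between -1.102 and -1.002. Without mutant replicate 1 the calls of SKA1, YIPF5, ZFAND1, ALDH1L2, ATM, POLR2K, PIAS4, ZNF580, CHRAC1, KTI12 and ANKRD39 were lost.

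Since DNMT3A acts on cytosine before guanine (CpG), the 150 bases before the start site of 2 of these rises and 2 of these falls are shown, from the same RefSeq table (GRCh38.p14), 5′ to 3′ on the gene's strand with each CpG in capitals. DNA methylation was not measured in the data used here.
CCDC187, rise (chr9:136304095-136304244, minus strand): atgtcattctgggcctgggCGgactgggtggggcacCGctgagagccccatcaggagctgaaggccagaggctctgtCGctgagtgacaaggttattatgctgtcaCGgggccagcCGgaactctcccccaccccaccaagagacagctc
SKA1, rise (chr18:50374896-50375045, plus strand): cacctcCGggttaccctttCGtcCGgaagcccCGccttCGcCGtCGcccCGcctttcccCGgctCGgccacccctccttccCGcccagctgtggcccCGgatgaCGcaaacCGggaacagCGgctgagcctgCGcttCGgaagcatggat
TMSB4X, fall (chrX:12974960-12975109, plus strand): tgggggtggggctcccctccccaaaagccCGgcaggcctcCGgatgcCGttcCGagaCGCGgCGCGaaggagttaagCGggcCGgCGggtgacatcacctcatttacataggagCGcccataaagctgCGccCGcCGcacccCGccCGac
PIAS4, fall (chr19:4007586-4007735, plus strand): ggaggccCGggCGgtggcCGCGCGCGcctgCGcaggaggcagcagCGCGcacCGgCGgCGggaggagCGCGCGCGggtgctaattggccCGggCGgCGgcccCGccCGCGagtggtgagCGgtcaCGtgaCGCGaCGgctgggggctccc

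These stretches hold 5 CpG in CCDC187, 17 in SKA1, 17 in TMSB4X and 27 in PIAS4, so the rises shown lie at or below the falls. The other 2 promoters read from the table, of the rise in ATP5MK and the fall in ZNF580, hold 14 and 21. These are 6 promoters chosen by the size of change, a description with no test. Genes of chromosome 8, ribosomal protein genes and mitochondrially encoded genes were passed over in this choice, POLR2K and MT-ND4 among them. Over the 7601 tested genes with an entry, split into 5 groups of equal size by the number of CpG in the table's 300-base window, 12.8% fell and 7.24% rose in the group with the most CpG (37 to 69). In the group with the fewest (0 to 18), 10.5% fell and 10.3% rose. The steps did not follow CpG number throughout: the second group (18 to 25) had the fewest falls, 8.55%, and the most rises, 12%. CpG number and GC content move together here: in the group with the highest GC content 12.1% fell and 6.84% rose.

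Calls followed the density of genes around a gene more closely than the CpG number. Genes with 1 to 7 protein-coding genes within 500 kb were called higher in 16.8% and lower in 3.99% of 2229 cases, and genes with 29 to 76 neighbours were called higher in 3.81% and lower in 20.8% of 1811 cases. The steps between went in the same order, with medians of 0.144, 0.109, 0.011, -0.074 and -0.155 on the log2 scale from the sparsest to the densest of 5 groups. CDK1 has 3 such neighbours, counting itself, ATM 9, HBZ 33 and H3C2 47, while ACTB has 14 and TMSB4X 6. With a smooth trend with density removed, 1553 genes were called (734 higher, 819 lower), and 65.7% of the calls made without it were among them. The source of the trend was not tested.

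**Figure D4:**
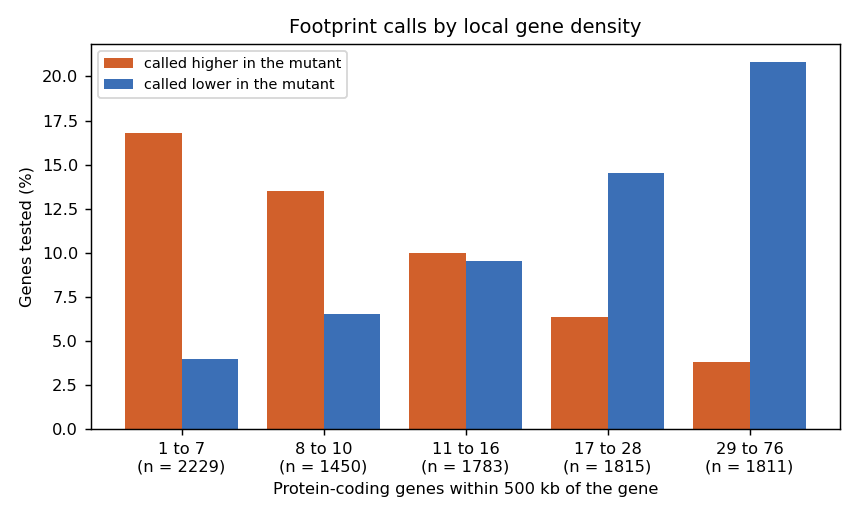
The percentage of tested genes called higher (orange) or lower (blue) in mutant footprints by edgeR, in 5 groups by the number of protein-coding genes within 500 kb; n under each pair of bars is the number of genes. From the sparsest to the densest group the orange bars go down from 16.8% to 3.81% and the blue bars go up from 3.99% to 20.8%.

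Read beside mRNA, most footprint calls had the same sign. Of 1943 called genes tested in both assays, 1690 (87%) had an mRNA change of the same sign, 1155 were also called in that direction in mRNA, 68 were called in the opposite direction and 720 were not called. In the mRNA comparison itself 37.7% of 10756 genes were called by edgeR. Across the 9166 genes tested in both assays the log2 fold changes had Pearson's r of 0.482 and Spearman's rho of 0.514, a description over genes, which are not independent replicates. The interaction of genotype and assay was called for 381 genes (4.16%), of which 153 had more and 228 fewer footprints per mRNA in the mutant. RPL13 had the clearest of the named ones: its mRNA fell by 0.12 and its footprints by 1.05 on the log2 scale (interaction -0.93, edgeR adjusted p = 7.8e-22). RPS19, H4C3, RPS13, TMSB4X, POLR2K, TAF11 and PRIM1 also had fewer footprints per mRNA by this test, and RPLP0, HBG2, PPIA, EIF4A2 and XPOT more. For CDK1, FASN, DDIT4, GDF15, ENO1 and EPRS1 the interaction was not called, with values between -0.07 and 0.15.

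**Figure D5:**
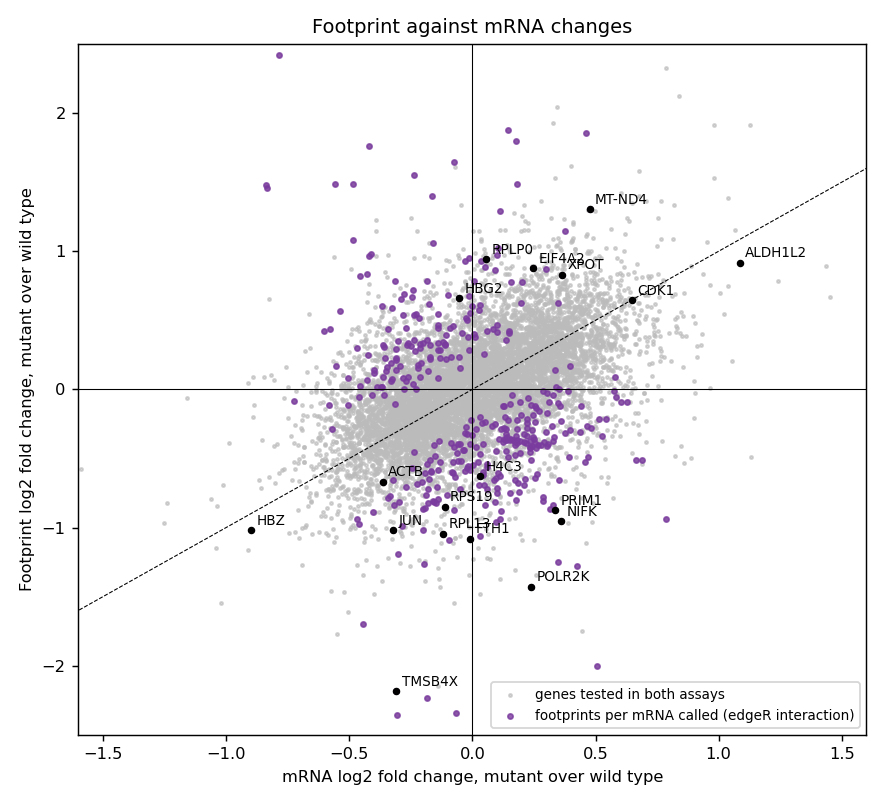
The log2 fold change in footprints (vertical axis) against that in mRNA (horizontal axis), mutant over wild type, for 9164 of the 9166 genes tested in both assays (2 lie outside the drawn range). Purple points are genes whose footprints per mRNA differed by edgeR's interaction test, black points are labelled genes and the dashed line marks equal change; CDK1 and HBZ lie near the line, RPL13 and RPS19 far below it and RPLP0 and HBG2 above it.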

How the data were processed

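The deposited files hold raw read counts by Ensembl ID, 1 file per library. Per the labels' protocols, RNase I digestion gave the footprints, which passed a gel for size and a depletion of ribosomal RNA, and mRNA was copied with oligo(dT). Tools listed in the submitters' processing notes are featureCounts, STAR, Bowtie2, Trimmomatic and cutadapt, with hg38 and GRCh38 as builds; roles, versions, strand setting, counted feature and the treatment of multiply matching reads are not stated in the material used here. Symbols (20407 of 20453 IDs matched) and GRCh38.p14 coordinates came from RefSeq tables, in which 7601 of the 9181 tested genes had a promoter.

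The tests used edgeR 4.0.16 under R 4.3.3 (glmQLFit with legacy set to FALSE, glmQLFTest, TMM, filterByExpr), on the 4 footprint libraries, on the 4 mRNA libraries and as an interaction over all 8. Class shares used all counts and exact permutation tests. The procedure was tested on simulated data. Over genes with at least 10 counts, footprint replicates did not differ beyond sampling noise (chi-square per degree of freedom 0.991, p = 0.732, in the wild type and 0.928, p = 1, in the mutant). Over genes with more than 1000 counts they did (1.579 and 1.345). These chi-square tests looked for excess spread only (upper tail), and whether the 0.928 of the mutant lies below sampling noise was not tested. They cannot tell separate cultures from separate preparations of the same culture. The edgeR tests took the replicates as 2 libraries per group. Named were DNMT3A, the 15 genes with the most footprints, the 12 largest rises and falls among called genes of at least 50 mean counts without overlap, and in each class described the most occupied member and up to 4 called ones of smallest p. These members and lists were chosen with earlier results of these data known. A few genes are not reported here.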

Additional observations from a re-analysis of the deposited data

How the results depend on the processing

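Other settings moved the 1950 footprint calls to 1941 (RLE factors), 1964 (upper-quartile factors), 2074 (library totals), 1542 (no filter), 1758 (at least 20 counts in each library), 1753 (all 8 libraries in the fit), 1553 (density trend removed), 384 (DESeq2) and 288 (assumed coefficient of variation of 10%), and to between 223 and 1782 when 1 library was left out, where a lone sample was assumed to vary like the other group. The cause of these shifts was not tested; with mutant replicate 1 left out only the shallowest library stands for the mutant. A replicate block gave 2076 footprint, 4168 mRNA and 508 interaction calls; the interaction had 381 without it. Same-numbered replicates had a correlation of deviations of 0.0329 over all genes tested and of 0.141 over the 3071 genes averaging 100 counts or more, and with 2 pairs the numbers were not taken to pair the libraries. Library totals moved the median of all genes to 0.058 on the log2 scale and left 17 of the classes with a median below 0, against 29. The difference in the 100-gene share stayed between -1.48 and -1.25 points without single libraries. Of 119 named genes that were called, 47 were called under every setting that gave them an adjusted p (65 with the 10% one set aside). DESeq2 and the filter of 20 counts gave no adjusted p to some named genes, which were not counted as lost there. Of the 119, 2 turned sign, both with the density trend removed (ALDOA 0.0191, PRKDC -0.0285). Removing that trend also turned the uncalled H1-2 (0.073), MRPS18B (0.0639), NUP210 (-0.0649) and HSP90B1 (-0.05, and between -0.015 and 0.0494 without single libraries). DNMT3A turned to 0.00748 (upper quartile), 0.0501 (library totals), 0.00367 (DESeq2), 0.00499 (10%) and 0.017 (replicate block), and lay between -0.0725 and 0.0904 without single libraries (0.0266 without mutant replicate 1). ATP5F1B turned to -0.0141 (no filter) and -0.00926 (20 counts) and lay between -0.01 and 0.0269 without single libraries. PABPC4 turned to 0.00811 (upper quartile) and 0.0517 (library totals) and lay between -0.0376 and 0.0275 without single libraries. The share difference of lysosomal proteins turned to -0.004 points without the 20 most occupied genes. Amino acid makeup and shares per protein length were not run. Depth limits single low genes most in mutant replicate 2, where 3 counts are 4.92 CPM.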

Other observations

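Further classes were described after the values of the main ones were known. Cytosolic chaperones overlapped in share between the genotypes (1.55% and 1.53% in the wild type against 1.54% in both mutant libraries) while their members moved both ways, 10 of 50 higher and 12 lower. The chaperonin subunit CCT5 fell from 1730 and 1717 CPM to 1471 and 1431 CPM, the small heat shock protein HSPB1 from 592 and 658.3 CPM to 386.2 and 436.6 CPM, and the HSP90 cochaperone PTGES3 rose from 144.7 and 161.4 CPM to 247 and 238 CPM. Splicing proteins overlapped too (2.55% and 2.52% against 2.53% and 2.51%), with 23 of 122 lower and 14 higher. HNRNPA2B1, which binds and packages nascent RNA, rose from 847.7 and 795.9 CPM to 1080 and 1110 CPM, and SF3B5, of the U2 particle, fell from 335 and 361.5 CPM to 203 and 210.1 CPM.

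Nucleolar ribosome biogenesis factors held a smaller share in the mutant (1.13% and 1.12% against 1.11% and 1.09%), and 18 of 106 fell while 7 rose. NIFK, a nucleolar protein that binds Ki-67, fell from 162.4 and 183.1 CPM to 87.92 and 91.92 CPM while its mRNA was higher in the mutant (log2 fold changes -0.96 and 0.36, edgeR interaction adjusted p = 1.1e-09). In the class of high-mobility-group and related proteins, HMGB2, an abundant DNA-bending protein, fell from 581.2 and 569.9 CPM to 374.7 and 367.7 CPM with an mRNA change that did not pass (0.11). These counts fell under other settings: without mutant replicate 1 there were 3 rises and 3 falls among cytosolic chaperones, 1 and 5 among splicing proteins and 0 and 3 among biogenesis factors, and with an assumed coefficient of variation of 10% there were 3 and 2, 0 and 5, and 0 and 1. The calls of the single genes named in this section were not recomputed.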
